A study of Mus musculus with 6 samples.

Results

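The 10 genes described here encode the transcription factor NRF2 (Nfe2l2), its inhibitor KEAP1 (Keap1) and 8 proteins with parts in the defence against oxidants and electrophiles, Nqo1, Hmox1, Srxn1, Gclc, Gclm, Txnrd1, Prdx1 and Prdx4. They were taken by symbol from a table of 24421 gene rows, by a rule that uses no measured value but was set with earlier results of these data known, and each of the 10 symbols matched 1 row. KEAP1 presents NRF2 to a cullin 3 ubiquitin ligase, which keeps the factor short-lived. Oxidants and electrophiles modify cysteines of KEAP1, NRF2 then accumulates, pairs with small MAF proteins and binds antioxidant response elements (AREs) in the promoters and enhancers of its targets. Since this control acts mainly on NRF2 protein, the Nfe2l2 transcript is not a measure of NRF2 activity.

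RNA sequencing had been carried out on 3 murine pancreatic ductal adenocarcinoma lines, 6499c4, 6419c5 and 2838c3. Cells had been kept for 16 hours with 250 nM G-1, which activates the oestrogen-binding G protein-coupled receptor GPER, or with its DMSO vehicle. Every line gave a single library for each treatment, 6 altogether, and the labels give the lines no other allele or agent. The study asked how G-1 changes gene expression in these tumour cells. A line stands here for 1 cultured tumour cell population, and nothing states that treatments were repeated in separate cultures, so p-values measure only the spread between these libraries.

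Reads in genes numbered 5455990 to 8890821 per library, with the fewest in the 6419c5 G-1 library, and a count of 0 allows up to 3 reads. All 5 epithelial markers were above 0 in every library, with a summed level of 3063 to 5374 FPKM (fragments per kilobase of gene length, on the authors' library scale). Epcam was the lowest of them, at 0.284 to 5.81 FPKM. The summed levels of 5 fibroblast markers (0.405 to 1.11 FPKM), 5 leukocyte markers (0.788 to 3.38 FPKM), 4 endothelial markers (0.0665 to 1.82 FPKM) and 5 acinar markers (0.166 to 7.31 FPKM) were low in all 6 libraries. In such bulk libraries, fewer cells with a transcript and less RNA per cell cannot be told apart.

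The largest differences among the NRF2 and antioxidant genes lay between the lines, not between G-1 and vehicle. Prdx4, an endoplasmic reticulum peroxiredoxin, had 46.7 to 51.8 FPKM in the 6499c4 and 6419c5 libraries and no read in either 2838c3 library. Nqo1, a quinone reductase and a much-used NRF2 target, had 4 reads in all in 6499c4, intermediate levels in 6419c5 and its highest levels in 2838c3. Gclc, the catalytic subunit of the first enzyme of glutathione synthesis, was highest in 6499c4. Nfe2l2 and Keap1 passed the test in none of the 3 line comparisons, and none of the 10 genes passed it for G-1.

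**Figure D1:**
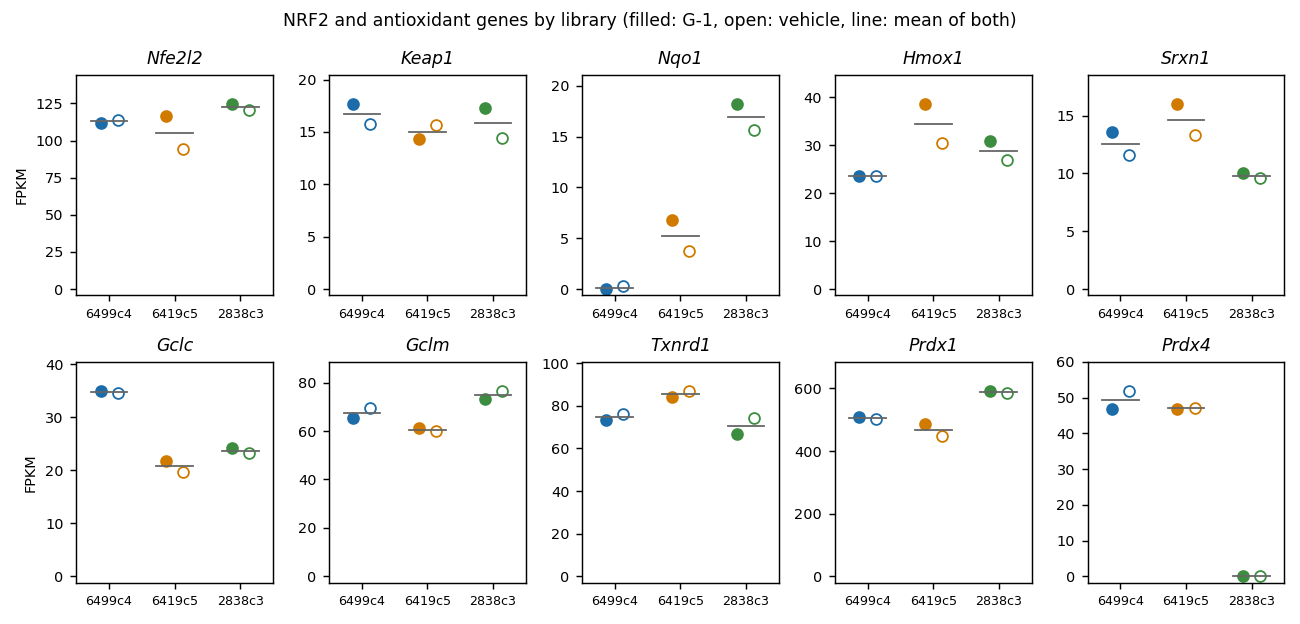
Level of each of the 10 genes in FPKM (vertical axis, starting at 0) in lines 6499c4, 6419c5 and 2838c3 (horizontal axis), with 1 filled point for the G-1 library, 1 open point for the vehicle library and a line at their mean. Prdx4 is at 0 in both 2838c3 libraries, and Nqo1 climbs across the lines with means of 0.141, 5.22 and 16.9 FPKM, while the points of the same line lie close together for most genes.

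Averaged over the 6 libraries, Prdx1, a cytosolic peroxiredoxin that reduces hydrogen peroxide, was the most abundant at 520 ± 56.7 FPKM (SD, n = 6). Nfe2l2 followed at 114 ± 10.6 FPKM, and its lowest library lay above the highest library of each gene below it. Next came Txnrd1, the cytosolic reductase of thioredoxin, at 76.9 ± 7.32 FPKM and Gclm, the modifier subunit of glutamate-cysteine ligase, at 67.6 ± 6.63 FPKM (SD, n = 6), whose ranges overlapped. Prdx4 (32.1 ± 24.9 FPKM), Hmox1 (29.0 ± 5.65 FPKM) and Gclc (26.4 ± 6.64 FPKM; SD, n = 6 each) did not differ beyond their spread either. The same held for Keap1 at 15.9 ± 1.40 FPKM and Srxn1, the sulfiredoxin that repairs overoxidised peroxiredoxins, at 12.4 ± 2.42 FPKM, with Nqo1 last at 7.43 ± 7.80 FPKM (SD, n = 6 each). This order holds for the gene lengths behind the deposited values. Set against the longest annotated transcript of each gene, and relative to the median gene, that length was 0.375 for Gclm, 0.624 for Prdx1 and 0.961 to 1.25 for the other 8 genes.

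The factor and its inhibitor came first in the comparison of the lines. Nfe2l2 had 112 FPKM with G-1 and 114 FPKM with vehicle in 6499c4, 116 and 94.1 FPKM in 6419c5, and 125 and 121 FPKM in 2838c3. Both 2838c3 libraries lay above the other 4, and the 6419c5 vehicle library was the lowest. On the log2(FPKM + 1) scale, which understates the change of low genes, the differences in Nfe2l2 were 0.11 ± 0.09 (SE; adjusted p = 0.361 in limma) for 6499c4 minus 6419c5, -0.12 ± 0.09 (adjusted p = 0.299) for 6499c4 minus 2838c3 and -0.23 ± 0.09 (adjusted p = 0.0715) for 6419c5 minus 2838c3. None passed an adjusted p of 0.05 in limma, fitted over the 10748 genes whose mean reached 1 FPKM and adjusted after Benjamini and Hochberg. The last of these passed in 3 of 13 alternative analyses. With all 6 libraries it did so in limma-voom on recovered reads (-0.23, adjusted p = 0.011) and in limma after quantile scaling (-0.26, adjusted p = 0.0466). The other was the analysis without the 6419c5 G-1 library (-0.37).

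Keap1 had 17.7 and 15.8 FPKM (G-1, vehicle) in 6499c4, 14.3 and 15.7 FPKM in 6419c5, and 17.3 and 14.4 FPKM in 2838c3. The 2838c3 libraries spanned nearly the whole range of the other lines. Its differences were 0.15 ± 0.11 (SE) for 6499c4 minus 6419c5, 0.08 ± 0.11 for 6499c4 minus 2838c3 and -0.07 ± 0.11 for 6419c5 minus 2838c3, with adjusted p between 0.324 and 0.641 in limma. Each of the 3 changed sign without a single library: the first to -0.01 without the 6419c5 G-1 library, the second to -0.04 without the 2838c3 vehicle library, and the third to 0.05 without the 2838c3 G-1 library or 0.09 without the 6419c5 G-1 library.

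Nqo1 showed the steepest order of the lines. It reduces quinones by 2 electrons at once and so keeps them from redox cycling. In 6499c4 it had 0 FPKM with G-1 and 0.281 FPKM with vehicle, which are 0 and 4 reads. In 6419c5 it had 6.75 and 3.70 FPKM (57 and 41 reads), and in 2838c3 18.2 and 15.7 FPKM (241 and 208 reads). No line overlapped another. Pooled over treatments, the reads in 6499c4 were 0.00887 of those in 2838c3 (exact 95% interval 0.00240 to 0.0229, counting error only) and 0.0299 of those in 6419c5 (0.00799 to 0.0791), after scaling. In 6419c5 they were 0.296 of those in 2838c3 (0.236 to 0.369). The log2 differences were -2.41 ± 0.24 (SE; adjusted p = 0.000238 in limma) for 6499c4 minus 6419c5, -3.98 ± 0.24 (adjusted p = 1.68e-05) for 6499c4 minus 2838c3 and -1.57 ± 0.24 (adjusted p = 0.00145) for 6419c5 minus 2838c3. All 3 passed in each of 13 alternatives, but the size depends on the analysis. For 6499c4 minus 2838c3 it was -6.44 with 0.1 in place of 1 FPKM added before taking logs, and -7.22 in limma-voom. Over all 13 the estimates ran from -7.22 to -3.57.

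Prdx4 separated 2838c3 from the other lines. The protein sits in the endoplasmic reticulum, where it uses hydrogen peroxide to oxidise protein disulphide isomerases. It had 46.7 and 51.8 FPKM (G-1, vehicle) in 6499c4, 46.9 and 47.2 FPKM in 6419c5, and 0 FPKM in both 2838c3 libraries. These are 365 and 462 reads, 249 and 329 reads, and 0 reads. Against the floor of 3 reads per library, 0.361 FPKM in 2838c3, the mean was at least 136.5-fold higher in 6499c4 and at least 130.5-fold higher in 6419c5. The limma differences were 5.65 ± 0.10 (SE; adjusted p = 8.43e-08) and 5.59 ± 0.10 (adjusted p = 1.41e-07), and both passed in each of 13 alternatives. Between 6499c4 and 6419c5 Prdx4 differed by 0.06 ± 0.10 (adjusted p = 0.647). Of all genes in the table, 3 were at 0 in both 2838c3 libraries and at 20 FPKM or more in each of the other 4, namely Ly6e, Maoa and Prdx4, and no gene met this for 6499c4 or 6419c5.

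The protein-coding genes beside these 2, in the gene order of the RefSeq annotation of GRCm38.p6, were read for the same libraries. On chromosome X, Acot9, next to Prdx4, had 69.9 and 71.5 FPKM (G-1, vehicle) in 6499c4, 63.2 and 67.1 FPKM in 6419c5, and 47.2 and 40.2 FPKM in 2838c3. It was expressed in 2838c3, but higher in 6499c4 (0.69 ± 0.09, SE; adjusted p = 0.00065 in limma) and in 6419c5 (0.57 ± 0.09, adjusted p = 0.00191). On the other side of Prdx4, Ptchd1 was low throughout, with 0.404 and 0.505 FPKM in 6499c4 (7 and 10 reads; G-1, vehicle) and no read in 6419c5 or 2838c3. On chromosome 8, both neighbours of Nqo1 were, like it, highest in 2838c3, with much smaller differences. Nfat5 had 8.18 and 9.03 FPKM in 6499c4, 10.6 and 12.1 FPKM in 6419c5, and 20.6 and 23.1 FPKM in 2838c3, a difference of -1.25 ± 0.10 (SE; adjusted p = 4.99e-05) for 6499c4 minus 2838c3. Nob1 had 55.4 and 57.0 FPKM in 6499c4, 57.5 and 61.3 FPKM in 6419c5, and 87.9 and 80.3 FPKM in 2838c3, a difference of -0.57 ± 0.08 (adjusted p = 0.000814). Further out on chromosome 8, Nip7, Terf2, Cyb5b, Wwp2, Psmd7 and Zfhx3 were also highest in 2838c3, Wwp2 only slightly. Cyb5b had 116 and 117 FPKM (G-1, vehicle) in 6499c4, 137 and 135 FPKM in 6419c5, and 263 and 261 FPKM in 2838c3. Tmed6 and Pmfbp1 were near 0 throughout. Whether copy number, chromatin or other properties of these regions differ between the lines was not tested.

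**Figure D2:**
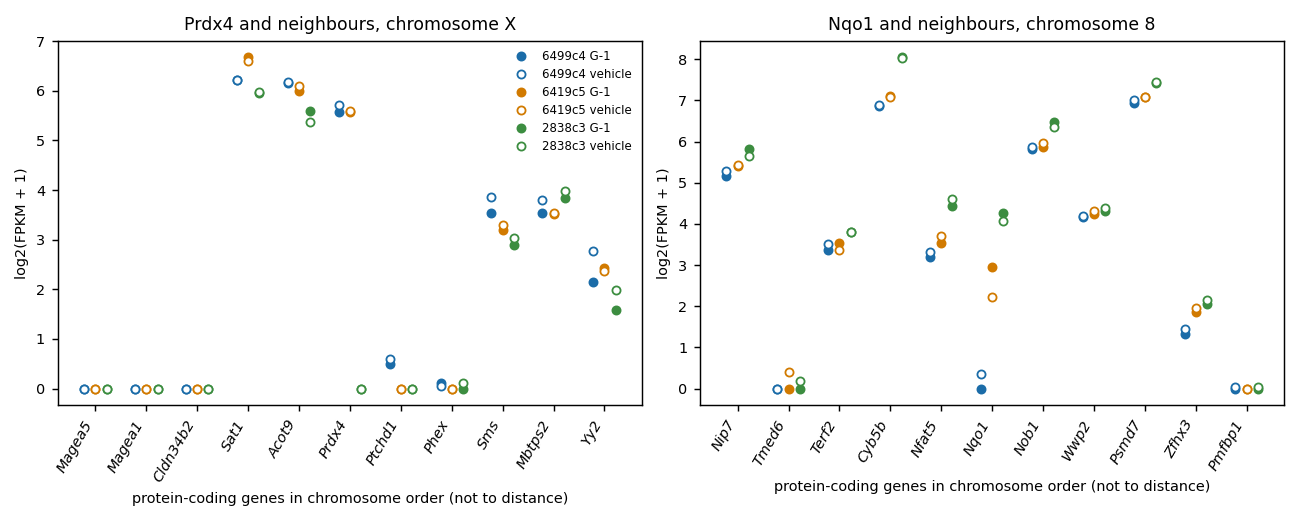
Level as log2(FPKM + 1) (vertical axis) of Prdx4 with its neighbours on chromosome X and of Nqo1 with its neighbours on chromosome 8, as protein-coding genes in chromosome order, not to distance (horizontal axis), with a filled point for each G-1 and an open point for each vehicle library in 3 colours for the lines. Prdx4 drops to 0 in 2838c3 between Acot9 and Sat1, which stay above 40 FPKM there, and genes that are near 0 in all lines.

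Of the genes for glutathione synthesis, Gclc had 34.9 and 34.6 FPKM (G-1, vehicle) in 6499c4, 21.8 and 19.7 FPKM in 6419c5, and 24.2 and 23.3 FPKM in 2838c3. Both 6499c4 libraries stood above the other 4. Gclc was higher in 6499c4 than in 6419c5 by 0.72 ± 0.08 (SE; adjusted p = 0.000472 in limma) and than in 2838c3 by 0.53 ± 0.08 (adjusted p = 0.00136), in each of 13 alternatives. Its difference between 6419c5 and 2838c3, -0.19 ± 0.08, missed the threshold (adjusted p = 0.0978). The partner subunit did not share this order. Gclm had 65.2 and 69.5 FPKM in 6499c4, 61.1 and 59.9 FPKM in 6419c5, and 73.2 and 76.4 FPKM in 2838c3, highest in 2838c3. It was lower in 6419c5 than in 2838c3 (-0.30 ± 0.07, adjusted p = 0.0106), a call that no longer passed without the 2838c3 G-1 library (-0.32, adjusted p = 0.058), the 2838c3 vehicle library (-0.29, adjusted p = 0.0767) or the 6419c5 vehicle library (-0.25, adjusted p = 0.0889).

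Hmox1 encodes the inducible haem oxygenase, which opens haem to biliverdin, iron and carbon monoxide. It had 23.7 and 23.6 FPKM (G-1, vehicle) in 6499c4, 38.6 and 30.4 FPKM in 6419c5, and 30.8 and 26.8 FPKM in 2838c3. Both 6499c4 libraries were below the other 4, while those of 6419c5 and 2838c3 overlapped. Hmox1 was lower in 6499c4 than in 6419c5 (-0.52 ± 0.10, SE; adjusted p = 0.00486 in limma), a call lost without the 6419c5 G-1 library (-0.40, adjusted p = 0.0673). Its difference for 6499c4 minus 2838c3, -0.27 ± 0.10, was at the threshold (adjusted p = 0.0487) and passed in 3 of 13 alternatives. Left out one at a time, every library but the 6499c4 vehicle library ended that call, with differences of -0.28 to -0.14 and adjusted p of 0.0513 to 0.347.

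Besides Prdx4, the thioredoxin and peroxiredoxin branch held Srxn1, Prdx1 and Txnrd1, which varied less than Prdx4 and Nqo1. Srxn1 had 13.6 and 11.6 FPKM (G-1, vehicle) in 6499c4, 16.0 and 13.3 FPKM in 6419c5, and 10.04 and 9.60 FPKM in 2838c3, lowest in 2838c3. It was higher in 6419c5 than in 2838c3 by 0.53 ± 0.10 (SE; adjusted p = 0.00471 in limma), a call lost without the 6419c5 G-1 library (0.47, adjusted p = 0.0593). Prdx1 had 509 and 503 FPKM in 6499c4, 485 and 446 FPKM in 6419c5, and 590 and 584 FPKM in 2838c3, highest in 2838c3. It was lower in 6419c5 than in 2838c3 (-0.34 ± 0.07, adjusted p = 0.00576), a call lost without the 6419c5 vehicle library (-0.28, adjusted p = 0.0843). So Prdx1 and Srxn1, the enzyme that restores its overoxidised form, stood in opposite orders between these lines.

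For 6499c4 minus 2838c3, Srxn1 differed by 0.33 ± 0.10 (SE; adjusted p = 0.0313 in limma) and Prdx1 by -0.21 ± 0.07 (adjusted p = 0.0331). Each passed in 5 of 13 alternatives, and both calls were lost whichever of the 6 libraries was left out (0.24 to 0.41 with adjusted p of 0.0542 to 0.228 for Srxn1, and -0.24 to -0.19 with adjusted p of 0.0622 to 0.174 for Prdx1). Txnrd1 had 73.2 and 76.3 FPKM (G-1, vehicle) in 6499c4, 84.0 and 86.7 FPKM in 6419c5, and 66.9 and 74.3 FPKM in 2838c3, with both 6419c5 libraries above the other 4. It was higher in 6419c5 than in 2838c3 by 0.27 ± 0.07 (adjusted p = 0.0148). That call ended without the 2838c3 G-1 library (0.22, adjusted p = 0.129), the 6419c5 G-1 library (0.24, adjusted p = 0.0997) or the 6419c5 vehicle library (0.30, adjusted p = 0.0608), and also without a variance trend (0.27, adjusted p = 0.054).

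In all, 3 of the 10 genes passed for 6499c4 minus 6419c5 (1 higher, 2 lower), where 45.0% of the 10748 genes did (21.3% higher, 23.7% lower). For 6499c4 minus 2838c3 it was 6 of 10 (3 higher, 3 lower), against 55.6% of all genes (26.6% higher, 28.9% lower). For 6419c5 minus 2838c3 it was also 6 of 10 (3 higher, 3 lower), against 51.5% (26.2% higher, 25.3% lower). With 1 library left out, 3 to 4 of the 10 passed for 6499c4 minus 2838c3 (4 without the 6499c4 vehicle library, 3 without any one of the others). For 6419c5 minus 2838c3, 3 passed without the 6419c5 vehicle library. The shares are near those of all genes, and each comparison holds members in both directions. Median differences of the 10 genes were 0.08, -0.02 and -0.13 in that order, beside medians of all genes within 0.01 of 0. With both libraries of one line outside the range of the other line, 4 genes were higher and 3 lower in 6499c4 than in 6419c5. Of all genes, 36.7% were higher and a further 36.7% lower. Against 2838c3, 3 were higher and 5 lower in 6499c4 (37.3% and 39.4% of all genes), and 3 higher and 5 lower in 6419c5 (38.5% and 38.4%). The 3 comparisons share libraries, so they are not separate evidence.

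**Figure D3:**
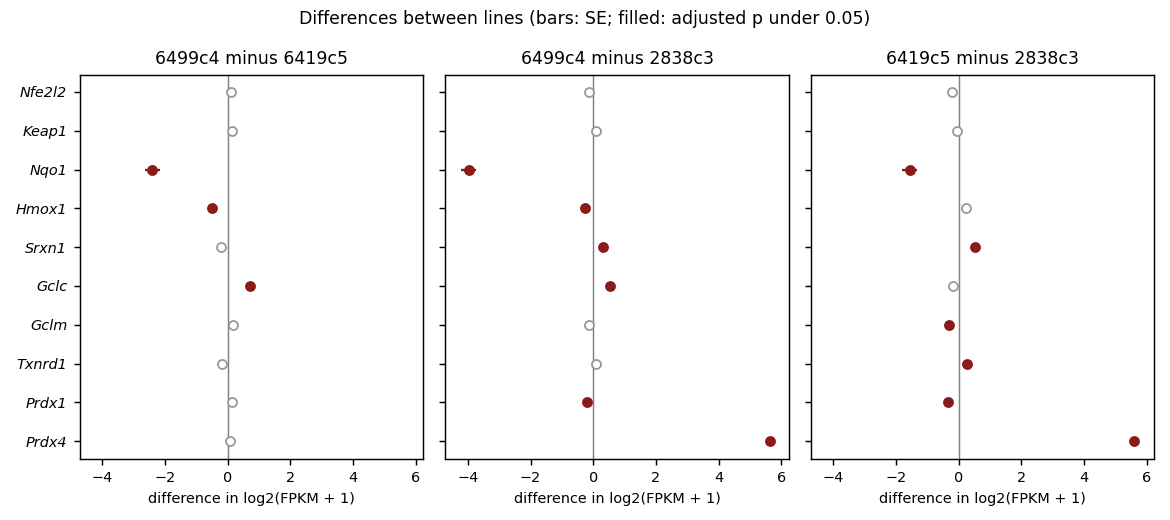
Difference in log2(FPKM + 1) between lines (horizontal axis, SE as bars, mostly shorter than the points) for each of the 10 genes (vertical axis), in 3 panels for 6499c4 minus 6419c5, 6499c4 minus 2838c3 and 6419c5 minus 2838c3. Filled points passed an adjusted p of 0.05, 3, 6 and 6 of them from left to right, and only Nqo1 (-3.98 to -1.57) and Prdx4 (5.59 and 5.65) lie more than 1 unit from 0.

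Promoter windows from 250 bases before to 50 bases after annotated gene starts, from RefSeq (GRCm38.p6), covered 8 of the 10 genes in 10 windows, with none for Hmox1 and Gclc. The core of the ARE was searched as TGACNNNGC on both strands. It was found in windows of 5 genes (Nfe2l2, Srxn1, Gclm, Prdx1 and Txnrd1), beside 12.4% of 32851 windows of all genes. Here and below, members are counted as genes with a match in any window, and Txnrd1 has several windows. The shares are of single windows, so the units differ. A form with G in place of the C, TGAGNNNGC, which was added after the first search had been seen, was in 2 (Srxn1 and Prdx1), beside 17.6% of all windows. The windows of Nqo1 and Prdx4 held neither, which says only that these letters are not within them. Below, Srxn1 and Prdx1 show the element, and Nqo1 and Prdx4 are the genes whose lines differed most; each window reads 5′ to 3′ along the gene, with matches to either form in capitals.
Srxn1 (chr2:152105274-152105573, plus strand): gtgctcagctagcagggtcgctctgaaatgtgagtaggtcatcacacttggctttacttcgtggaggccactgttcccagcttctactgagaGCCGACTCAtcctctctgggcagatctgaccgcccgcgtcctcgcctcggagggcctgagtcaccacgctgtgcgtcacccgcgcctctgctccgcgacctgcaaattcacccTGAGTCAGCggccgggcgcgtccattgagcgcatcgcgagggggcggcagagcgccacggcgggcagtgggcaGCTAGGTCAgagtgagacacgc
Prdx1 (chr4:116685349-116685648, plus strand): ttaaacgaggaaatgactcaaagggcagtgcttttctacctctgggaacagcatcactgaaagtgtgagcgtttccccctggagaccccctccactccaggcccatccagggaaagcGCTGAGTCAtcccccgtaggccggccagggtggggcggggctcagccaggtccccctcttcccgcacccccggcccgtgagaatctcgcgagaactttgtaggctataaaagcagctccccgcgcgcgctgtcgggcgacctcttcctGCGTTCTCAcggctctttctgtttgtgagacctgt
Nqo1 (chr8:107403156-107403455, minus strand): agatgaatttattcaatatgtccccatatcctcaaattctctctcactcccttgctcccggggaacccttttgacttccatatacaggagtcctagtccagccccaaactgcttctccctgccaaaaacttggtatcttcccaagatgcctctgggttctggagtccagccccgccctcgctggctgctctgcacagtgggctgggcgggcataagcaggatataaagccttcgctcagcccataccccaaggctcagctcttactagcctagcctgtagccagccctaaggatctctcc
Prdx4 (chrX:155338411-155338710, minus strand): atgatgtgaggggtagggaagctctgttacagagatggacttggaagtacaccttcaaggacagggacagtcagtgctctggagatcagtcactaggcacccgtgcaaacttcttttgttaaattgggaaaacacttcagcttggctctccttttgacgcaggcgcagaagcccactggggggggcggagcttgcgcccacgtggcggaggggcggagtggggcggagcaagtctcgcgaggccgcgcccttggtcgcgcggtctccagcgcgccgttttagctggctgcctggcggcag

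Counted from the first base of the gene as 0, the matches in the Srxn1 window began at positions -158, -45 and 28. Those of Prdx1 began at positions -133 and 15. The core of the xenobiotic response element bound by the aryl hydrocarbon receptor, GCGTG, was in windows of 4 of the genes (Srxn1, Gclm, Keap1 and Txnrd1), beside 32.4% of all windows. A match of letters is a description and not a bound site.

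G-1 was then compared with vehicle. Hmox1 had 23.7, 38.6 and 30.8 FPKM with G-1 in 6499c4, 6419c5 and 2838c3, against 23.6, 30.4 and 26.8 FPKM with vehicle, so that the difference was almost nil in 6499c4. The mean over lines was 0.18 ± 0.08 (SE; adjusted p = 0.516 in limma with line as block). Srxn1 had 13.6, 16.0 and 10.04 FPKM with G-1, against 11.6, 13.3 and 9.60 FPKM with vehicle (0.18 ± 0.09, adjusted p = 0.538). Both genes were above vehicle in all 3 lines, but by less than the test could separate from the spread of these differences across lines. Txnrd1 was the 1 gene below vehicle in all 3 lines, at 73.2, 84.0 and 66.9 FPKM with G-1, against 76.3, 86.7 and 74.3 FPKM with vehicle (-0.08 ± 0.06, adjusted p = 0.642).

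Nqo1 averaged 8.31 ± 9.20 FPKM with G-1 and 6.55 ± 8.08 FPKM with vehicle (SD, n = 3 each), a spread set by the lines. Its difference of 0.19 ± 0.20 (SE; adjusted p = 0.768 in limma) was the largest of the 10 in size and changed sign, to -0.29, when 0.1 in place of 1 FPKM was added before taking logs, and to -0.08 without 6419c5. Nqo1 is also a known target of the aryl hydrocarbon receptor. Of that receptor's other targets, Cyp1b1 had 987, 3371 and 355 reads with G-1, against 417, 1688 and 75 with vehicle, in 6499c4, 6419c5 and 2838c3 (1.49 ± 0.10, SE; adjusted p = 0.00656 in limma). That call depends on the settings. Without a level filter, a variance trend, the line block or 6419c5, 0 genes passed for G-1, Cyp1b1 included. Cyp1a1 had 20, 115 and 193 reads with G-1, against 1, 0 and 27 with vehicle (2.02 ± 0.36, adjusted p = 0.219).

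Nfe2l2 averaged 118 ± 6.43 FPKM with G-1 and 109.5 ± 13.8 FPKM with vehicle (SD, n = 3 each), a difference of 0.11 ± 0.07 (SE; adjusted p = 0.648 in limma). Keap1 averaged 16.4 ± 1.82 FPKM with G-1 and 15.3 ± 0.785 FPKM with vehicle (0.09 ± 0.09, adjusted p = 0.759). Neither moved one way in all lines, as Nfe2l2 was lower with G-1 in 6499c4 and Keap1 in 6419c5. Gclc differed by 0.07 ± 0.07 (adjusted p = 0.762) and Gclm by -0.04 ± 0.06 (adjusted p = 0.841). Prdx1 differed by 0.05 ± 0.06 (adjusted p = 0.795) and Prdx4 by -0.05 ± 0.08 (adjusted p = 0.86), where Prdx4 had no read in either 2838c3 library.

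None of the 10 genes passed for G-1 in limma, where 0.0279% of the 10748 genes did (0.00930% higher, 0.0186% lower), and none had an unadjusted p under 0.05, the smallest being 0.0629; 10.1% of all genes did. With limma-voom on reads recovered from the deposited values, none passed either. The mean difference was above 0 for 7 genes and below 0 for 3, with a median of 0.08 beside -0.01 for all genes. With G-1, 4 of the 10 (Hmox1, Srxn1, Gclc and Prdx1) were higher in all 3 lines, beside 15.4% of all genes, and 1 was lower in all 3, beside 17.5%. In 6499c4, however, Hmox1, Gclc and Prdx1 were higher by only 0.006, 0.010 and 0.016, so their shared direction rests on differences near 0. The SE of the mean differences was 0.06 to 0.09 for the genes other than Nqo1. It is close to or above most of the estimates, so a change of that size was not detectable with 3 lines.

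Within single lines, read ratios of G-1 to vehicle with exact 95% intervals, which cover counting error only and no variation between cultures, put 5 of the 10 genes above 1 and none below 1 in 6419c5, beside 7.77% of the 10748 genes above and 8.76% below. They were Nqo1 at 1.82 (1.20 to 2.80), Hmox1 at 1.27 (1.09 to 1.48), Nfe2l2 at 1.24 (1.15 to 1.33), Srxn1 at 1.20 (1.01 to 1.44) and Prdx1 at 1.09 (1.04 to 1.13). Such intervals narrow as reads rise, so that Prdx1, with 3739 and 4519 reads, cleared 1 at this small ratio. The shares of all genes here and below were not matched to the 10 genes for reads. The 6419c5 G-1 library also had the fewest reads of the 6, and its part in these ratios was not tested. In 2838c3, Keap1 was above 1 at 1.20 (1.07 to 1.35) and Txnrd1 below 1 at 0.901 (0.851 to 0.954), beside 12.6% of all genes above and 18.2% below. In 6499c4 no interval of the 10 genes lay to one side of 1, beside 17.9% of all genes above and 17.7% below. With 1 library per line and treatment, whether the lines responded differently could not be tested.

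**Figure D4:**
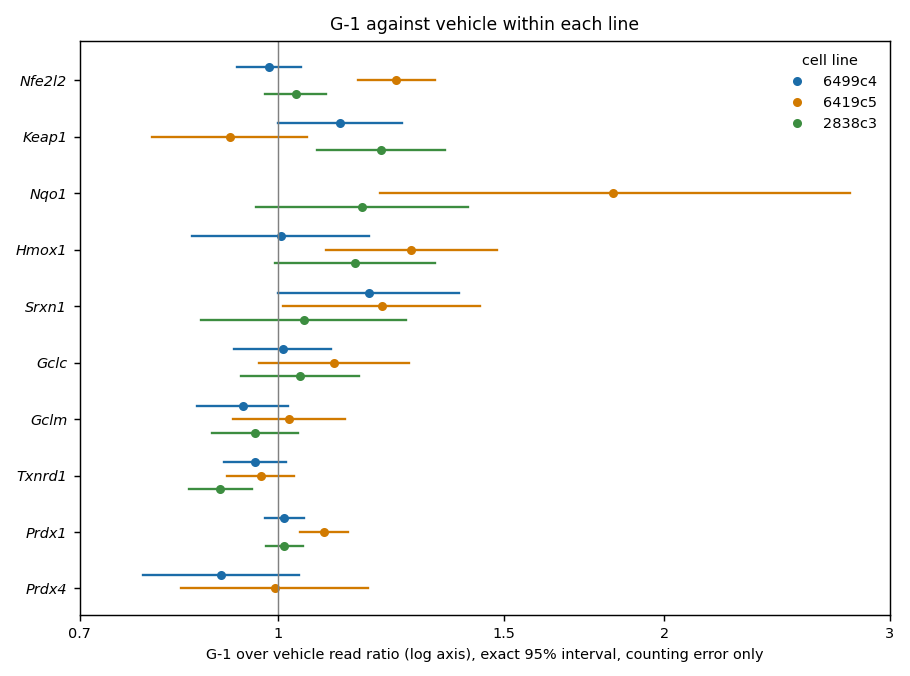
Ratio of G-1 to vehicle reads after scaling (horizontal axis, logarithmic) for each of the 10 genes (vertical axis) in lines 6499c4, 6419c5 and 2838c3, with exact 95% intervals that cover counting error only. Most intervals cross 1. The 5 that lie above it in 6419c5, where 7.77% of all genes do (not matched for reads), have ratios between 1.09 for Prdx1 and 1.82 for Nqo1. Ratios without reads in both libraries (Nqo1 in 6499c4, Prdx4 in 2838c3) are not drawn.

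The rest of the NRF2 system was read from 9 lists with 88 genes, of which 76 were tested and 12 were below the level filter. For G-1, 0 of the 76 passed in limma. An unadjusted p under 0.05 was found for 19 of them (25.0%), 17 of these higher with G-1, beside 10.1% of all genes. With G-1, 25 genes were higher in all 3 lines (32.9%, beside 15.4% of all genes) and 8 were lower in all 3 (10.5%, beside 17.5%), and the median difference was 0.07. Genes of a pathway do not vary independently, and these shares are descriptions.

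Gpx1, the main cytosolic glutathione peroxidase, came closest to the threshold. It had 177, 121 and 178 FPKM with G-1 in 6499c4, 6419c5 and 2838c3, against 149.9, 99.7 and 126 FPKM with vehicle (0.34 ± 0.07, SE; adjusted p = 0.279 in limma). Sod1, the cytosolic copper-zinc superoxide dismutase, had 497, 664 and 385 FPKM with G-1, against 378, 601 and 336 FPKM with vehicle (0.25 ± 0.07, adjusted p = 0.358). Prdx5, a peroxiredoxin of mitochondria, peroxisomes and cytosol, had 177, 129 and 80.2 FPKM with G-1, against 132, 108 and 68.1 FPKM with vehicle (0.30 ± 0.06, adjusted p = 0.288). These 3 were higher with G-1 in each line and passed in limma-voom (adjusted p = 0.00444 for Gpx1, 0.0271 for Sod1 and 0.0291 for Prdx5), where 181 genes were called in place of 3.

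The gene with the smallest p in each of the other lists did not pass. Cbr1, a carbonyl reductase, differed by 0.53 ± 0.11 (SE; adjusted p = 0.288 in limma). Gsta1, a glutathione transferase with close paralogs that could share its reads, differed by 0.42 ± 0.09 (adjusted p = 0.294). Gss, which completes glutathione, differed by 0.26 ± 0.08 (adjusted p = 0.371), and Idh1, a cytosolic source of NADPH, by 0.18 ± 0.06 (adjusted p = 0.405). Ftl1, the ferritin light chain, differed by 0.17 ± 0.06 (adjusted p = 0.453), and Sqstm1, the p62 protein that competes for KEAP1, by 0.15 ± 0.06 (adjusted p = 0.466).

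**Figure D5:**
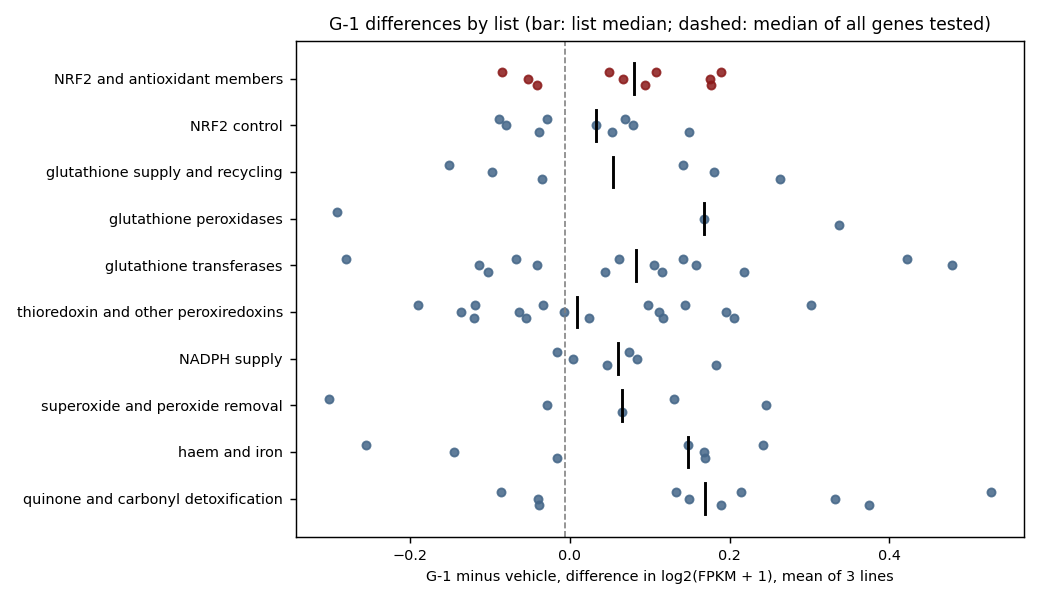
Mean difference over 3 lines between G-1 and vehicle in log2(FPKM + 1) (horizontal axis), 1 point per tested gene, for the 10 genes (top row) and for 9 further lists of the NRF2 system (vertical axis), with a bar at each list's median and a dashed line at the median of all 10748 genes (-0.01). The median of the 10 genes lies at 0.08, and no point passed an adjusted p of 0.05.

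Between the lines, 46 of these 76 genes (60.5%) passed in limma for 6499c4 minus 6419c5, beside 45.0% of all genes. It was 51 (67.1%) for 6499c4 minus 2838c3, beside 55.6% of all genes, and 48 (63.2%) for 6419c5 minus 2838c3, beside 51.5%. The first had 20 higher and 26 lower, the second 28 and 23, the third 30 and 18, so no line was high throughout. Of 9 genes that control NRF2, 4 were lower in 6499c4 than in 6419c5 and none higher, beside 23.7% of all genes lower and 21.3% higher. Among them, the small MAF partners Mafk (-1.03 ± 0.11, SE; adjusted p = 0.000287) and Maff (-0.95 ± 0.10, adjusted p = 0.000347) and the repressor Bach1 (-0.91 ± 0.14, adjusted p = 0.0016) had the largest differences. Bach1 had 4.58 and 5.07 FPKM (G-1, vehicle) in 6499c4, 10.9 and 9.03 FPKM in 6419c5, and 5.06 and 4.61 FPKM in 2838c3.

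In glutathione supply, Slc7a11, the cystine importer, had 10.02 and 9.76 FPKM (G-1, vehicle) in 6499c4, 12.6 and 8.85 FPKM in 6419c5, and 2.08 and 1.99 FPKM in 2838c3. It was lowest in 2838c3, with differences of 1.84 ± 0.15 (SE; adjusted p = 6.09e-05 in limma) for 6499c4 and 1.93 ± 0.15 (adjusted p = 7.6e-05) for 6419c5. Gss followed the same order, with 0.91 ± 0.10 for 6499c4 (adjusted p = 0.00021) and 1.14 ± 0.10 for 6419c5 (adjusted p = 0.000111). Of 6 genes tested here, 2 were higher and 2 lower in 6499c4 than in 2838c3, and 3 higher and 1 lower in 6419c5. The shares of all genes were 26.6% higher and 28.9% lower for 6499c4 minus 2838c3, and 26.2% higher and 25.3% lower for 6419c5 minus 2838c3. One of the genes lower in 6499c4 than in 2838c3 was Gsr, glutathione reductase (-0.61 ± 0.07, adjusted p = 0.000298).

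Of 14 glutathione transferases tested out of 21, 6 were higher and 4 lower in 6499c4 than in 2838c3, and 7 higher and 4 lower in 6419c5, beside the all-gene shares of 26.6% and 28.9%, and of 26.2% and 25.3%. Gstm2 was lowest in 2838c3, with differences of 2.09 ± 0.15 (SE; adjusted p = 3.7e-05 in limma) for 6499c4 and 2.69 ± 0.15 (adjusted p = 1.85e-05) for 6419c5. Gsta4 had 524 and 455 FPKM (G-1, vehicle) in 6499c4, 218 and 198 FPKM in 6419c5, and 132 and 121 FPKM in 2838c3. Reads of these families can be split between near-identical copies, so the values of single transferases are uncertain. A list of 16 thioredoxin, peroxiredoxin, glutaredoxin and sestrin genes had 8 higher and 1 lower in 6499c4 than in 2838c3, beside 26.6% and 28.9% of all genes, and 5 higher and 2 lower in 6419c5, beside 26.2% and 25.3%. Of the 8, 4 were sestrins or glutaredoxins (Sesn1, Sesn2, Glrx2 and Glrx5). Prdx5 was higher in 6499c4 than in 2838c3 by 1.04 ± 0.08 (SE; adjusted p = 4.01e-05 in limma), and Txnip, an inhibitor of thioredoxin, was higher in 6419c5 than in 2838c3 by 1.06 ± 0.09 (adjusted p = 9.14e-05).

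The quinone and carbonyl list, which holds genes with functions close to that of Nqo1, had members in both directions. Aldh3a1, an aldehyde dehydrogenase, had 62.7 and 59.2 FPKM (G-1, vehicle) in 6499c4, 71.9 and 62.2 FPKM in 6419c5, and 9.50 and 8.73 FPKM in 2838c3. Cbr3, a carbonyl reductase, had 7.16 and 5.99 FPKM in 6499c4, 4.88 and 2.88 FPKM in 6419c5, and 0.603 and 0.30 FPKM in 2838c3. Both were thus lowest in 2838c3, the line with the most Nqo1: for 6499c4 minus 2838c3, Aldh3a1 differed by 2.61 ± 0.08 (SE; adjusted p = 7.62e-07 in limma) and Cbr3 by 2.39 ± 0.16 (adjusted p = 3.05e-05). Akr1b8, an aldo-keto reductase, shared the order of Nqo1, with 84.0 and 71.0 FPKM in 6499c4, 123 and 104 FPKM in 6419c5, and 196 and 175 FPKM in 2838c3. It differed by -0.54 ± 0.07 (adjusted p = 0.000659) for 6499c4 minus 6419c5, -1.25 ± 0.07 (adjusted p = 9.81e-06) for 6499c4 minus 2838c3 and -0.71 ± 0.07 (adjusted p = 0.000168) for 6419c5 minus 2838c3. Nqo2, a related quinone reductase, was likewise highest in 2838c3, with differences of -1.02 ± 0.10 (adjusted p = 0.000149) for 6499c4 minus 2838c3 and -1.17 ± 0.10 (adjusted p = 0.000115) for 6419c5 minus 2838c3. Akr1b8 and Nqo2 were picked out after their values were seen. Of the 10 genes tested in this list, 4 were higher and 5 lower in 6499c4 than in 2838c3, beside 26.6% and 28.9% of all genes, and 5 higher and 4 lower in 6419c5, beside 26.2% and 25.3%. Osgin1, an oxidative stress-induced growth inhibitor, was lower in 6499c4 than in 6419c5 (-1.60 ± 0.14, adjusted p = 0.000125).

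Catalase (Cat) also had the order of Nqo1, with 24.6 and 25.0 FPKM (G-1, vehicle) in 6499c4, 36.4 and 39.8 FPKM in 6419c5, and 54.3 and 51.7 FPKM in 2838c3. It differed by -1.07 ± 0.08 (SE; adjusted p = 5.29e-05 in limma) for 6499c4 minus 2838c3. Of the NADPH sources, Me1, malic enzyme, had 70.7 and 72.0 FPKM in 6499c4, 59.1 and 55.2 FPKM in 6419c5, and 146 and 132 FPKM in 2838c3, where it was highest. Pgd of the pentose phosphate pathway was lower in 6499c4 than in 6419c5 (-1.02 ± 0.07, adjusted p = 4.2e-05). Slc40a1, the iron exporter ferroportin, had 21.3 and 25.2 FPKM in 6499c4, 14.6 and 13.3 FPKM in 6419c5, and 2.05 and 3.80 FPKM in 2838c3, opposite to Nqo1.

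Likeness of pattern was measured over the 6 libraries as the root mean square difference of log2(FPKM + 1) centred on each gene's mean, among the 8229 genes whose mean reached 5 FPKM. The 4 genes nearest to Nqo1 were Il1r1 (0.227), 3300005D01Rik (0.315), Ptprn (0.347) and BC030870 (0.375). Il1r1, the interleukin 1 receptor, was at 0 FPKM in both 6499c4 libraries and had 5.25 and 4.67 FPKM (G-1, vehicle) in 6419c5 and 14.1 and 14.7 FPKM in 2838c3. Nearest to Nfe2l2 were Zcrb1 (0.0412), Scamp1 (0.0416), Stil (0.0447) and Birc2 (0.0469). For a gene that varies as little as Nfe2l2, such closeness means mostly that both were nearly level.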

How the data were processed

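The authors deposited 1 table of FPKM values for 24421 gene rows and 6 libraries. The submitters' processing notes name STAR and DESeq2, with no role stated. No source used here gives the genome build, annotation, strandedness or counting rule, so reads shared by overlapping, antisense or near-identical genes could not be told apart. Within a gene, the deposited FPKM moved in equal steps, and whole reads were recovered for all 15712 genes above 0 (within 0.01 reads). Where all reads of a gene have a common divisor, its recovered reads are too low by that factor and its interval too wide; this can occur mainly at few reads. The library scale was proportional to median-of-ratios size factors of these reads, which differ from read totals by up to 10.2%. Intervals and floors cover counting error only, and reads carry no molecular identifiers.

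Values were analysed as log2(FPKM + 1), computed from the deposited FPKM, for the 10748 genes whose mean reached 1 FPKM, in limma 3.58.1 (R 4.3.3) with a variance trend and 2 residual and 5.35 prior degrees of freedom. G-1 was compared with vehicle with line as block, and each pair of lines was compared with treatment as a covariate. Libraries pair by line by design. The tests were two-sided, adjusted after Benjamini and Hochberg, and called at 0.05. Read recovery and the G-1 fit were each tested on simulated data. Read-ratio intervals came from the binomial distribution (SciPy).

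The members and lists were chosen with earlier results of these data known. All 10 members are named. Of the other lists, the gene with the smallest p was named for G-1, and for lines examples were drawn from the 3 called genes with the largest differences. Sesn1 and Glrx2 were named outside this rule. For likeness the 4 nearest genes were named. Neighbours of Prdx4 and Nqo1, Ly6e, Maoa, Akr1b8, Nqo2 and the values of list genes in further libraries were added after values were seen. The alternatives were another pseudocount, level filters, quantile scaling, no variance trend, limma-voom on recovered reads, no block or covariate, and leaving out lines or libraries.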

Additional observations from a re-analysis of the deposited data

How the results depend on the processing

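The alternatives left all 10 genes uncalled for G-1. The number of all genes called for G-1, 3, was 1 with a pseudocount of 0.1 FPKM, 0 without a level filter, 6 with a mean of at least 5 FPKM, 0 without a variance trend and 181 with limma-voom. Without the replicate block, that is without pairing by line, it was 0. Leaving out a line gave 0 to 11 (0 without 6419c5, 4 without 2838c3, 11 without 6499c4). The cause of these shifts was not tested. Among the line comparisons, leaving out 1 library gave 2612 to 4708 called genes for 6499c4 minus 6419c5 and 3430 to 5677 for 6419c5 minus 2838c3, fewest without a 6419c5 library. Of the 10 genes, 3 to 6 passed for 6419c5 minus 2838c3 (3 without the 6419c5 vehicle library) and 3 to 4 for 6499c4 minus 2838c3, where 3 also passed without a level filter. The calls in Prdx4, Nqo1 and Gclc held in all alternatives run. Differences near 0 changed sign: for G-1, Nqo1 was -0.29 with a pseudocount of 0.1 FPKM and -0.0767 to 0.46 when a line was left out, and Prdx1 was -0.0135 with quantile scaling. With 1 library left out, Keap1 ranged over -0.0117 to 0.31 for 6499c4 minus 6419c5 (lowest without the 6419c5 G-1 library), -0.0374 to 0.20 for 6499c4 minus 2838c3 (lowest without the 2838c3 vehicle library) and -0.23 to 0.0908 for 6419c5 minus 2838c3 (above 0 without the 2838c3 or the 6419c5 G-1 library). Likewise, for 6499c4 minus 6419c5, Nfe2l2 ranged over -0.0379 to 0.26 (below 0 without the 6419c5 vehicle library) and Prdx4 over -0.00908 to 0.13 (below 0 without the 6499c4 vehicle library). The naming rule took 87 results for list genes, not all of them printed, and 72 stayed on their side of the threshold in all alternatives, while none changed sign. An arm left with 1 library was assumed to vary like the others. With 3 reads as the floor, levels under 0.361 FPKM of Prdx4 in 2838c3 were not detectable at this depth.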
